A study of Mus musculus with 7 samples.

Results

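The cells described here are the Krt18-high, Epcam-positive cells of the BRCA1-null mammary tumors, a class proposed as luminal progenitor-like. A cell was taken into the class when it carried at least 1 unique molecular identifier (UMI) of Epcam and at least 25 Krt18 UMIs per 10000 UMIs. The rule was applied to cells with at least 1000 UMIs, at least 500 genes and under 20% of UMIs from mitochondrial genes. It took 426 of the 2323 BRCA1-null cells that passed these limits, out of 12168 cells in all 7 libraries. Of the 426, 20 came from replicate A and 406 from replicate B. They are compared below with the other Epcam-positive cells of the same tumor, which fell under the Krt18 threshold (158 and 1384 cells).

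The study profiled single tumor cells of 4 mouse mammary cancer models with droplet sequencing that counts the 3' ends of transcripts. BRCA1-null tumors arose spontaneously in untreated adult FVB/NJ mice carrying floxed alleles of Brca1 (F/F) and of Trp53 (F/F) with K14-Cre, a Cre driven by the Krt14 promoter, so that recombination starts in Krt14-expressing cells. PyMT tumors were grown in FVB/NJ mice from the FF99WT cell line, derived from an MMTV-PyMT tumor with floxed FIP200 alleles and no Cre, and so stem from 1 line. Neu tumors arose spontaneously in MMTV-Neu mice of the FVB/NJ strain, which per the study's methods had also been bred with FIP200 F/F mice. BRCA1-null, PyMT and Neu each had 2 tumors, labelled replicates A and B and sequenced in separate batches, and 4T1, a tumor grown in BALB/C mice from transplanted cells of the GFP-labelled 4T1 line, had 1 library. From every tumor, CD24+ cells lacking Ter119, CD31 and CD45 were sorted, which removes most blood and endothelial cells. Internal deletions of Brca1 or Trp53 need not lower 3' counts, so those counts do not check the genotype.

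As background, the mammary duct has an inner layer of luminal cells, marked by the paired keratins Krt8 and Krt18, and an outer basal layer marked by Krt5, Krt14 and Trp63. Luminal cells divide into progenitors, which express Kit, Elf5, Aldh1a3 and Cd14 and can give rise to milk-producing alveolar cells, and hormone-sensing cells, which express the receptors Esr1, Pgr and Prlr with Foxa1 and Cited1. Luminal progenitors are widely regarded as the cell of origin of many BRCA1-linked breast tumors. Claudins are membrane proteins of the tight junction that seals the luminal layer, and Wfdc18 encodes a secreted protein of the luminal epithelium.

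The 2 BRCA1-null libraries differed strongly in size. Replicate A held 245 cells and replicate B 2078 cells, and 178 (72.7%) and 1790 (86.1%) of them had an Epcam UMI. The class made up 11.2% of the Epcam-positive cells in replicate A (exact 95% binomial interval 7.0 to 16.8) and 22.7% in replicate B (20.8 to 24.7). Intervals here cover counting error only. The same rule took 87.8% and 87.5% of Epcam-positive cells in the PyMT tumors, 8.61% and 36.6% in the Neu tumors and 31.6% in 4T1, so the share in BRCA1-null replicate A lay between the shares of the Neu tumors, and that of replicate B did too. The share depends on the Epcam limit: with Epcam at 10 or more per 10000 UMIs, an alternative chosen after seeing the data, it was 47.1% and 31.2%. The members' UMIs summed to 245822 in replicate A and 6176494 in replicate B, so values for replicate A rest on far fewer counts. Their median depth was 10258 and 12804 UMIs per cell, against 22371.5 and 13008 in the comparison cells. Scrublet called none of the 426 members a doublet, and 14 and 9 of the comparison cells. Of the members' barcodes, 0 and 5 also occurred among the cells of another library.

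The members were chosen by their Krt18 and Epcam UMIs, and these values are given as a description. Krt18 per 10000 UMIs ran from 25.7 through a median of 52.0 to 167 in replicate A and from 25.03 through 42.8 to 243 in replicate B. The highest cells left outside stood at 22.4 and 24.9, and the comparison cells had medians of 0.816 and 5.54. In replicate A, 2 cells lay between 20 and 25 and 3 between 25 and 30, whereas in replicate B 97 and 73 cells did, so the threshold cut through a continuous range in replicate B. The median number of Epcam UMIs per cell was 17.5 and 40 in members against 2 and 18 in comparison cells. In replicate A, 55 of the 158 comparison cells had a single Epcam UMI, as did 234 of 1384 in replicate B.

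**Figure D1:**
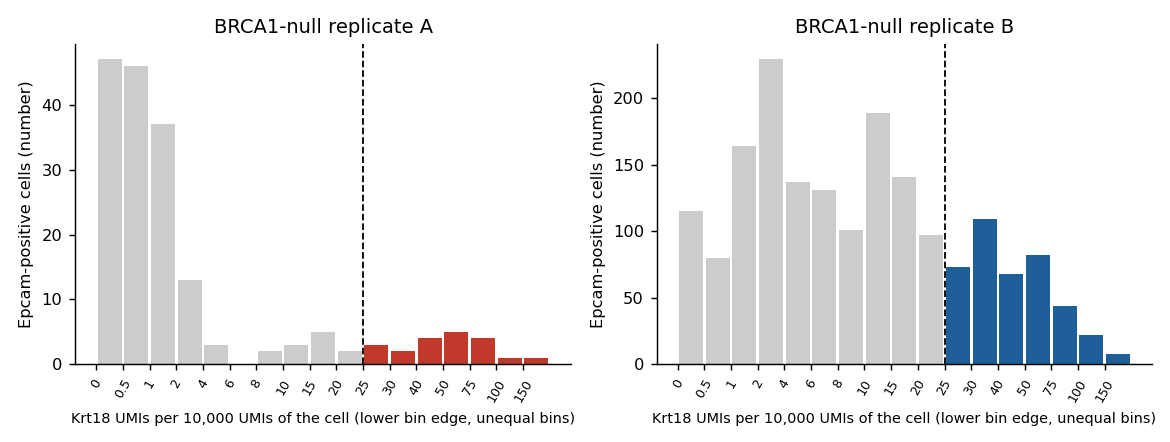
Numbers of Epcam-positive cells (y axis) by Krt18 UMIs per 10000 UMIs (x axis, lower edges of unequal bins) in BRCA1-null replicates A and B. Colored bars right of the dashed line are the 20 and 406 members, grey bars the comparison cells; the line marks 25 per 10000.

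The promoters of the keratin pair and of 2 claudins are shown because these genes are luminal markers used to describe the class. Sequences are from RefSeq on GRCm38.p6 and span 250 bases before to 50 bases after the start site, printed 5′ to 3′ on the gene's strand, with capitals marking the E-box CAGGTG on either strand. Krt8 (chr15:102004293-102004592, minus strand) and Krt18 (chr15:102027966-102028265, plus strand) are transcribed away from each other, with start sites 23.9 kb apart. Cldn4 (chr5:134946885-134947184, minus strand) and Cldn3 (chr5:134985964-134986263, plus strand) have the same arrangement, 39.3 kb apart.
Krt8: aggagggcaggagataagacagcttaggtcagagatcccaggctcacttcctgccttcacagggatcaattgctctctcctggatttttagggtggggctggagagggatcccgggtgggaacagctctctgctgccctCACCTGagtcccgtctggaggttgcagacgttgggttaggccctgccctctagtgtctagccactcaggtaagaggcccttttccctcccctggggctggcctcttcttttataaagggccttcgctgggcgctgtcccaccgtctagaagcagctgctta
Krt18: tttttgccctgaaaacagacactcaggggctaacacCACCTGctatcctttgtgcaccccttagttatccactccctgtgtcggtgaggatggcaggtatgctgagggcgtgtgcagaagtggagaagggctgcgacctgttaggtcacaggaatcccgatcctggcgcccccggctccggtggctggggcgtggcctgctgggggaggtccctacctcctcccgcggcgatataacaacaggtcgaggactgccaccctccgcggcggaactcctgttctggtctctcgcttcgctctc
Cldn3: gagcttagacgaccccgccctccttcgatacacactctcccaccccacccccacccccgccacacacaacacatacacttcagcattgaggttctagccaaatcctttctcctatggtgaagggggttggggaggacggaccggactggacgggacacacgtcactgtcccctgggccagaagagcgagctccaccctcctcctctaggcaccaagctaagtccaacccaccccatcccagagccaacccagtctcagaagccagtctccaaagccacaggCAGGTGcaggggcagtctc
Cldn4: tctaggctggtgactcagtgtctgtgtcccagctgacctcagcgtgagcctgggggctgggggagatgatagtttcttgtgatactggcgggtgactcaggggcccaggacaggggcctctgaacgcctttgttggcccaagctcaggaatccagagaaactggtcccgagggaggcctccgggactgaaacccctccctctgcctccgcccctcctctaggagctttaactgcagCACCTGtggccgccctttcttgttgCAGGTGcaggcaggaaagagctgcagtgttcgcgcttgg
The E-box starts at position -111 in Krt8, -214 in Krt18, 31 in Cldn3, and -14 and 11 in Cldn4, counted from the start site. Of the 16 promoters that matched 12 of the 17 listed keratin, claudin and marker genes, 8 held CAGGTG on either strand, and 20.2% of all 32851 promoters did. Other motifs searched on both strands were AACNGGTT (2.09% of all promoters), TTCNNNGAA (8.30%), TATAAA (13.6%), CCGGAAG (8.86%), CACGTG (7.15%), TGAGTCA (5.20%), GGGCGG (35.7%) and CCAAT (37.4%). Of these, TATAAA was found in the Krt8 promoter, TGAGTCA in that of Cldn4, and GGGCGG in those of Cldn3 and Cldn4. On the other strand TGAGTCA reads TGACTCA, and a match is a description of the letters only.

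The label was checked against its markers after each cell had been thinned to 3000 UMIs, which left 15 of 20 and 376 of 406 members and 151 and 1290 comparison cells. Free RNA in droplets can give a cell UMIs of genes that it does not express. For Wfdc18 and Csn3, shares are therefore set beside those of Epcam-negative cells with Col1a1 or Col3a1 UMIs (9 and 218 cells). The other shares are set against comparison cells only and are not held against this background here. Krt8, the partner of Krt18, was detected in 100% and 99.5% of members and in 25.2% and 59.7% of comparison cells. Cldn3 was found in 80.0% and 88.3% of members against 23.8% and 40.9%, and Cldn4 in 80.0% and 59.3% against 2.65% and 13.3%. Both tumors' members therefore carried the luminal keratins and claudins more often than the comparison cells. Wfdc18 was in 60% and 85.9% of members, but also in 44.4% and 60.1% of the Epcam-negative cells, so its share says little beyond that background. The same held for the casein Csn3, which was in 86.7% and 63.8% of members and 88.9% and 54.1% of Epcam-negative cells.

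The markers of progenitor and hormone-sensing cells had different shares in the members of the 2 tumors. In replicate B, the transcription factor Elf5 was found in 22.3% of members (exact interval 18.2 to 26.9) against 5.58% of comparison cells, the retinaldehyde dehydrogenase Aldh1a3 in 14.6% against 4.57%, the co-receptor Cd14 in 41.0% against 14.7% and the receptor Kit in 9.04% against 4.34%. In replicate A, Kit and Aldh1a3 were each found in 0 of 15 members, which allows a share of up to 21.8%, against 5.30% and 6.62% of comparison cells. Elf5 was found there in 6.67% against 1.99% and Cd14 in 26.7% against 11.9%, and the exact intervals of members and comparison cells overlapped for these 4 genes. The prolactin receptor Prlr was instead found in 80.0% of replicate A members (51.9 to 95.7) against 0.662% of comparison cells, and the transcriptional co-regulator Cited1 in 66.7% (38.4 to 88.2) against 7.28%. In replicate B these were in 8.51% and 4.26% of members. At least 2 of the 5 hormone-sensing markers (Esr1, Pgr, Prlr, Foxa1, Cited1) were detected in 8 of 15 members of replicate A and 10 of 376 of replicate B. At least 2 of 5 progenitor markers (Kit, Elf5, Aldh1a3, Cd14, Csn3) were detected in 3 of 15 and 158 of 376. In comparison cells these numbers were 0 of 151 and 6 of 1290 for the hormone-sensing markers and 29 of 151 and 193 of 1290 for the progenitor markers. Csn3 is among the progenitor markers although its share lay near the background, so a cell with Csn3 UMIs needed only another marker. The 2 counts are therefore not set against each other. At full depth, 10 of 20 members of replicate A and 335 of 406 of replicate B had at least 2 progenitor markers, 7 and 32 of them together with at least 2 hormone-sensing markers. Among comparison cells, which were deeper in replicate A, 113 of 158 and 656 of 1384 had at least 2 progenitor markers at full depth. In replicate B, 210 of 376 members met neither count at 3000 UMIs, so the proposed label was borne out there only in part. Since it was not borne out in replicate A, the cells are called Krt18-high below. Esr1 itself was found in 6.67% and 1.33% of members.

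Basal and mesenchymal markers differed as well. Krt14 was found in 60.4% of Krt18-high cells of replicate B and in 64.1% of the comparison cells, and 60.1% of Krt18-high cells had both Krt8 and Krt14. Free RNA can add to these shares, and its part was not tested. In replicate A, Krt14 was in 20.0% of Krt18-high cells against 5.96%. Vimentin (Vim), an intermediate filament of mesenchymal cells, was in 0 of 15 Krt18-high cells of replicate A, which allows up to 21.8% of cells with a Vim UMI at this depth, and in 47.1% in replicate B, against 69.5% and 82.4% of comparison cells. At full depth 5 of the 20 members of replicate A had a Vim UMI. Ptprc, Cd3e, Cd79a, Csf1r and Cdh5, which are markers of immune and endothelial cells, were at 0 in the members of both tumors at this depth. At full depth, members of replicate B had a few UMIs of Pecam1, Kdr, Emcn, C1qa and Cd79a, at most 7 in any cluster described below. Over whole marker lists, in the comparison with the other Epcam-positive cells described below, 1 of 7 immune genes tested (C1qb) and 1 of 5 pericyte genes (Pdgfrb) were lower in members, and none of 3 endothelial genes was called. Dcn, a matrix proteoglycan of fibroblasts, was in 6 of 15 members of replicate A (40.0%) and 3.72% of those of replicate B. At least 2 of 8 proliferation genes were detected in 0 of 15 and 6.91% of members and in 33.8% and 9.30% of comparison cells.

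**Figure D2:**
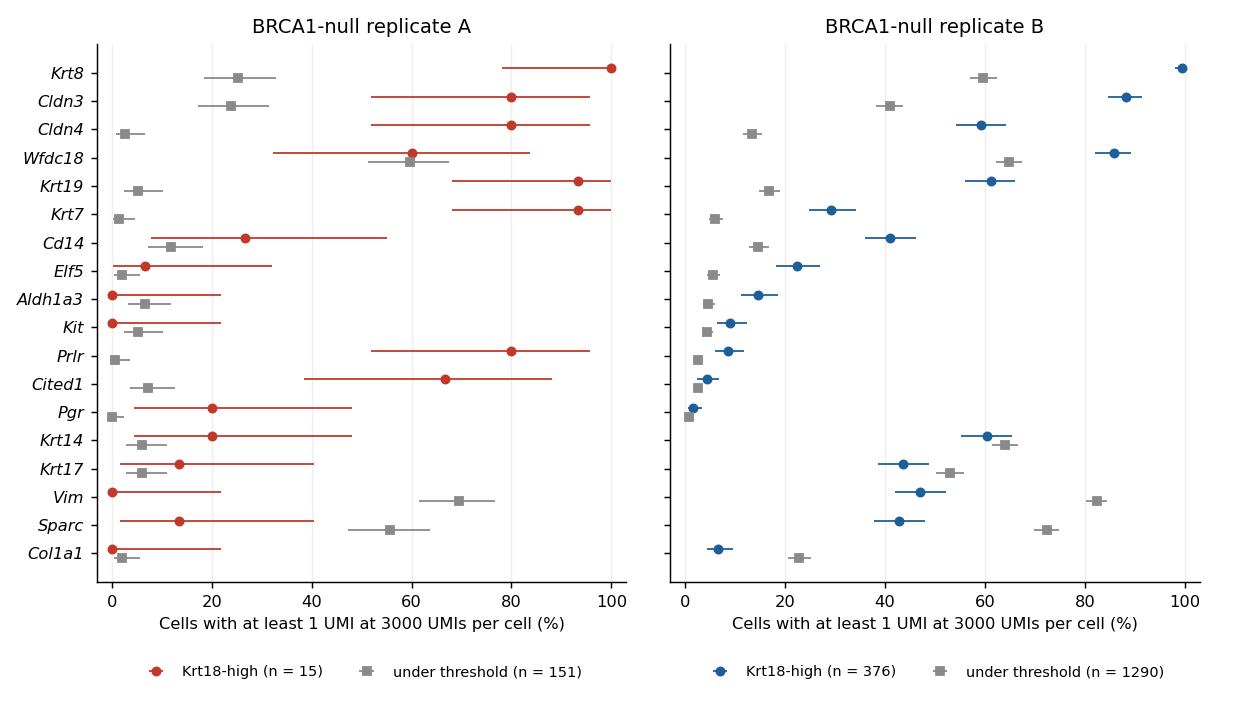
Shares of cells with at least 1 UMI of each gene (x axis, percent) at 3000 UMIs per cell in BRCA1-null replicates A (15 Krt18-high and 151 comparison cells) and B (376 and 1290 cells), with exact 95% binomial intervals as bars. Krt8 and the claudins lie right of the comparison cells in both tumors, Prlr and Cited1 mainly in replicate A, and Elf5 mainly in replicate B.

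The first comparison asked which genes besides Krt18 and Epcam separated Krt18-high cells from the other Epcam-positive cells of the same tumor. UMIs were summed per tumor and arm, giving 4 sums, and tested with edgeR's quasi-likelihood test with the tumor as a block. The arms were set by Krt18, so the calls describe how these arms differ over the 2 tumors. Of 11378 genes tested, 159 were higher in Krt18-high cells (1.4%) and 184 were lower (1.62%) at a Benjamini-Hochberg adjusted p under 0.05. The sign was the same in both tumors for 341 of the 343 called genes and for 6698 of the 11035 genes not called. Counts of list genes on the same side in both tumors, given below, are to be read against these shares. The fit leaves 1 residual degree of freedom and shares the spread across all genes. A call therefore does not measure how well that gene repeated, and it can rest mainly on 1 tumor. Without the tumor block edgeR called 0 genes in either direction (301 and 491 at an unadjusted p under 0.05), and DESeq2 with the block called 82 higher and 68 lower. The comparison cells carried fewer Epcam UMIs, above all in replicate A. With Epcam at 10 or more per 10000 UMIs in both arms, an alternative chosen after seeing the data that left 16 of 34 and 379 of 1215 cells as members, 54 genes were higher and 20 lower, and many of the calls below were lost under this limit. Levels below are CPM of the summed UMIs after TMM scaling (CPM sets a UMI count against the normalised library size), in the order Krt18-high and comparison cells of replicate A, then of replicate B.

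Keratins of the luminal layer showed some of the largest differences. Krt8 stood at 5285 and 121 CPM in replicate A and at 3605 and 581 CPM in replicate B, a log2 difference of 4.04 ± 0.47 (SE, adjusted p = 2.8e-14, edgeR). Krt19 stood at 4467 and 22.3 and at 954 and 121 CPM (5.29 ± 0.58, adjusted p = 2.7e-16). Krt7 stood at 1123 and 5.84 and at 182 and 29.9 CPM (5.00 ± 0.70, adjusted p = 1.2e-09). All 3 luminal keratins that had a test were higher, also with DESeq2 and at the higher Epcam limit, with wider gaps in replicate A, and the medians of these 3 were 7.52 and 2.63 on the log2 scale in the respective tumors. Krt18 itself, which set the arms, stood at 6431 and 138 and at 5249 and 866 CPM, and Epcam at 2097 and 208 and at 3125 and 1881 CPM.

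Tight-junction and other junction genes were higher too. Of 9 claudins tested, 4 were higher and none lower (Cldn3, Cldn4, Cldn7 and Cldn10), with a list median of 2.60 against -0.16 over all genes. Cldn4 stood at 1395 and 9.31 CPM in replicate A and at 894 and 119 CPM in replicate B (5.01 ± 0.64, adjusted p = 5.0e-12 by edgeR). Cldn3 stood at 935 and 92.2 and at 2105 and 508 CPM (2.69 ± 0.49, adjusted p = 1.2e-05), and Cldn7 at 515 and 21.0 and at 630 and 214 CPM (3.06 ± 0.61, adjusted p = 7.5e-05). In each of these the levels of Krt18-high cells lay above those of the comparison cells of either tumor. Of 23 epithelial junction genes, 7 were higher and 20 lay higher in both tumors. They included Cdh1, the adhesion receptor E-cadherin (2.18 ± 0.63, adjusted p = 0.025), Cgn, which encodes the tight-junction protein cingulin (3.02 ± 0.65, adjusted p = 4.5e-04), and the membrane protease St14 (2.83 ± 0.62, adjusted p = 6.9e-04) with its inhibitor Spint1 (3.4 ± 0.82, adjusted p = 0.0029). With Epcam at 10 or more per 10000 UMIs, Cldn3 and Cldn4 were still called, but 0 of the 7 junction genes were.

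Among 19 luminal progenitor genes tested, 6 were higher, none was lower and 13 were not called, with a median of 1.26. Wfdc18 stood at 3703 and 879 CPM in replicate A and at 4352 and 1527 CPM in replicate B (1.79 ± 0.40, adjusted p = 8.7e-04 by edgeR). Cd14, a co-receptor for bacterial lipopolysaccharide, stood at 312 and 55.6 and at 434 and 115 CPM (2.2 ± 0.56, adjusted p = 0.0058). Plet1, Trf, the iron carrier transferrin, Csn3 and Cldn10 were the others, with differences of 2.72, 2.07, 1.98 and 2.45. DESeq2 called 2 of these 6 (Cldn10 and Plet1), and Wfdc18 (0.97) and Cldn10 were not called at the higher Epcam limit. The genes that define progenitors most closely did not pass the test. Elf5 stood at 15.6 and 6.06 and at 113 and 27.0 CPM (1.81 ± 0.67, adjusted p = 0.15), Aldh1a3 at 39.0 and 14.5 and at 82.3 and 22.6 CPM (1.68 ± 0.63, adjusted p = 0.15), and Kit at 3.90 and 22.3 and at 29.7 and 14.8 CPM (-0.02 ± 0.80). Kit was thus lower in Krt18-high cells of replicate A and higher in those of replicate B. The antibacterial protein Lcn2 differed in the same way, at 819 and 1544 and at 2434 and 710 CPM (0.44 ± 0.48).

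Milk genes formed a related group, in which 5 of 17 were higher and 12 were not called (median 1.25). The casein Csn2 stood at 780 and 0.649 CPM in replicate A and at 998 and 379 CPM in replicate B (5.14 ± 0.81, adjusted p = 1.4e-07 by edgeR). Lalba, the lactose synthase subunit alpha-lactalbumin, stood at 316 and 24.9 and at 390 and 79.6 CPM (2.96 ± 0.59, adjusted p = 8.3e-05). Csn1s1, Csn3 and Btn1a1 were the others, and Csn3 and Lalba were the 2 of these 5 also called at the higher Epcam limit. Of 15 genes of secreted defense, 3 were higher, and Wfdc2, a secreted protein of the Wfdc18 family, led them at 1286 and 18.6 and at 1197 and 430 CPM (3.76 ± 0.62, adjusted p = 5.3e-07). Of 12 MHC class I genes, H2-D1 (1.56 ± 0.42, adjusted p = 0.013) and B2m (1.37 ± 0.42, adjusted p = 0.036) were higher, and all 12 lay higher in both tumors. DESeq2 called neither H2-D1 nor B2m.

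Hormone-sensing genes differed more widely in replicate A than in replicate B. Of the 12 listed 9 were tested and 5 were higher, with medians of 5.30 in replicate A and 0.48 in replicate B. Prlr stood at 479 and 3.90 CPM in replicate A and at 44.1 and 9.24 CPM in replicate B (4.46 ± 0.73, adjusted p = 3.7e-07 by edgeR). Cited1 stood at 928 and 23.4 and at 46.3 and 8.23 CPM (3.89 ± 0.63, adjusted p = 4.1e-07), and the progesterone receptor Pgr at 70.2 and 0 and at 4.22 and 2.68 CPM (3.51 ± 1.0, adjusted p = 0.023). Ly6a, a surface antigen of hormone-sensing luminal cells, and the luminal transcription factor Gata3 were the others. Their log2 ratios were 5.12 and 4.32 in replicate A and 1.05 and 0.48 in replicate B. At the higher Epcam limit Pgr (1.60, adjusted p = 0.92) and Gata3 (0.91, adjusted p = 0.94) were not called. With 24 Prlr-rich cells of replicate B left out (cluster 6, below, an alternative added after the clusters were seen), Cited1 (adjusted p = 0.19) and Pgr (adjusted p = 0.083) were no longer called, while Prlr, Ly6a and Gata3 were. Foxa1 missed the threshold (2.90 ± 0.96, adjusted p = 0.074), and Esr1 was too low to be tested. Other epithelial regulators outside this list, the Ets factor Elf3 (3.50 ± 0.72, adjusted p = 1.7e-04) and the Grainyhead family member Tfcp2l1 (2.95 ± 0.81, adjusted p = 0.014), were higher, but at the higher Epcam limit neither was called.

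Mesenchymal and matrix genes formed the opposite arm, with 19 of 26 lower, none higher and a median of -3.59. Vim stood at 31.2 and 983 CPM in replicate A and at 603 and 1958 CPM in replicate B (-3.15 ± 0.54, adjusted p = 2.0e-06 by edgeR). The matrix protein Sparc stood at 11.7 and 520 and at 239 and 1599 CPM (-3.78 ± 0.57, adjusted p = 3.0e-08). The fibrillar collagen Col1a1 stood at 0 and 70.3 and at 19.8 and 384 CPM (-4.59 ± 0.74, adjusted p = 3.1e-07). All lay lower in the Krt18-high cells of both tumors. At the higher Epcam limit Col5a1, Pdgfra, Pdgfrb and Thy1 were too low to be tested and none of the other 15 was called, with Vim at -1.42 (adjusted p = 0.10), Sparc at -1.98 (adjusted p = 0.061) and Col1a1 at -0.56 (adjusted p = 1.0), whereas DESeq2 called 12 of the 19 without that limit. Of 5 fibroblast markers tested, 4 were lower as well (Pdgfra, Col1a1, Col3a1 and Lum). Dcn was not called and did not lie lower in both tumors. Whether stromal RNA in the comparison cells has a part in these differences was not tested. Of 11 transcription factors of the epithelial-mesenchymal transition, 3 were lower. Zeb1 stood at 0 and 34.6 and at 1.52 and 19.1 CPM (-3.97 ± 0.94, adjusted p = 0.0021), Prrx1 at 0 and 9.52 and at 2.70 and 55.9 CPM (-4.43 ± 1.02, adjusted p = 0.0013), and Zeb2 differed by -3.14 ± 0.95 (adjusted p = 0.035). Sox9, which is also a luminal progenitor factor, was called higher by edgeR (2.14 ± 0.65, adjusted p = 0.037). Its log2 ratio was 4.03 in replicate A and 0.31 in replicate B. At the higher Epcam limit Zeb1 and Prrx1 were too low to be tested, and Zeb2 (-1.13) and Sox9 (1.58) were not called.

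Basal genes were mixed. Of 21 tested, 7 were lower and none higher (median -1.34). They included the basal keratin Krt5 (-2.63 ± 0.72, adjusted p = 0.013 by edgeR), the basal master regulator Trp63 (-3.53 ± 0.91, adjusted p = 0.0068) and the smooth-muscle actin Acta2 (-3.63 ± 0.66, adjusted p = 1.2e-05). At the higher Epcam limit Krt5 and Apoe were the 2 of these 7 still called (Trp63 at -3.61, adjusted p = 0.093), and DESeq2 called 3 of 7. Krt14 did not pass, at 160 and 56.5 CPM in replicate A and at 1492 and 1977 CPM in replicate B (0.51 ± 0.48, adjusted p = 0.98), and neither did Krt17, at 546 and 122 and at 1019 and 1157 CPM (0.98 ± 0.51, adjusted p = 0.53). At the higher Epcam limit Krt14 was lower (-1.38, adjusted p = 0.035). The 28 proliferation genes all lay lower in both tumors, but only Ccnb1 (-2.50 ± 0.71, adjusted p = 0.019) and Cenpa (-2.26 ± 0.65, adjusted p = 0.024) passed, with medians of -3.81 in replicate A and -0.69 in replicate B, and DESeq2 called neither. Ccnb1 was not called at the higher Epcam limit either (-2.55, adjusted p = 0.061). No gene of the ErbB (9 tested), Notch (9), interferon (15), glycolysis (14), respiratory chain (20) or cytosolic ribosome (20) lists was called.

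**Figure D3:**
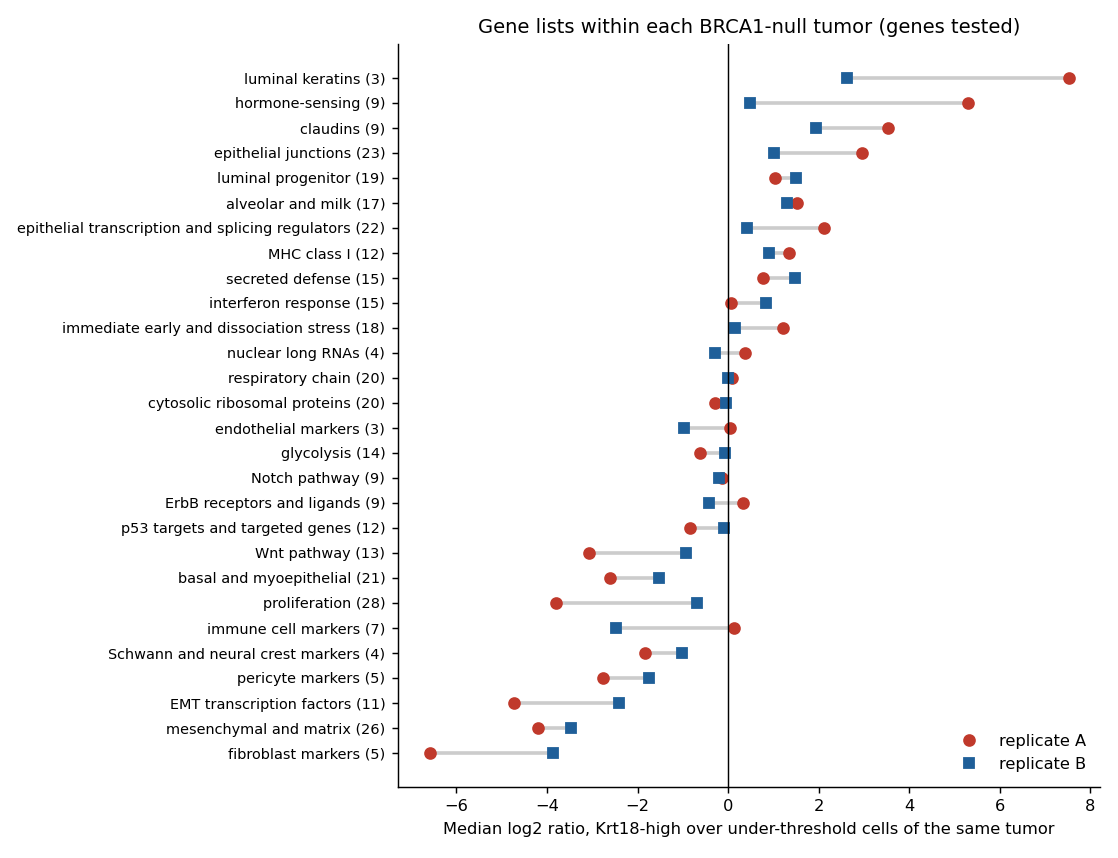
Median log2 ratio of Krt18-high over comparison cells (x axis) for each gene list with at least 3 genes tested (rows, number tested in parentheses), as circles for replicate A and squares for replicate B. Mesenchymal genes lie left of 0 and luminal keratins right of 0 in both tumors, and hormone-sensing genes lie at 5.30 and 0.48.

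Among the genes with the widest differences were several with little known link to the mammary gland. Fgb, a fibrinogen chain, stood at 713 and 0.433 CPM in replicate A and at 56.4 and 0.657 CPM in replicate B (8.09 ± 0.78, adjusted p = 4.1e-21 by edgeR). Fam25c stood at 1598 and 1.73 and at 17.4 and 0.808 CPM, the urothelial membrane protein Upk3a at 573 and 0.216 and at 60.3 and 7.98 CPM, and the epithelial keratin Krt4 at 476 and 1.08 and at 14.9 and 0.505 CPM. Sprr2a3 had 54 and 18 UMIs in the Krt18-high sums and 0 in both comparison sums. Ang4, Gipc2 and R3hdml completed this set. The same sign in both tumors was a condition for choosing it, and its differences were far wider in replicate A. Genes near 0 in the comparison cells could pass the filter on low counts only where they were high in Krt18-high cells. The widest differences in the other direction were those of Serpinf1, Col1a1, Col1a2, Mfap5, Gas1, Crabp1, Col3a1 and Cxcl14, which ranged from -4.77 to -4.16. None of these 8 was called at the higher Epcam limit, where they ranged from -2.63 (Gas1) to -0.19 (Crabp1).

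Clustering of the 406 Krt18-high cells of replicate B gave 6 clusters, whose leading genes are a description. Cluster 1 (128 cells, 31.5%) was led by S100g, Sgk1, Wfdc12 and Fn1 and held Krt14 at 2203 CPM, unscaled. Cluster 2 (123 cells) was led by Apod, Ltf, Wfdc3 and Pigr and had Elf5 at 190 CPM. Cluster 3 (56 cells) was led by the milk genes Csn1s2a, Csn2, Csn1s1 and Lalba. In these 3 clusters, in that order, Krt14 stood at 2203, 327 and 322 CPM and Csn2 at 81.5, 192 and 6059 CPM. Cluster 4 (40 cells) was led by Wnt10a and carried Vim at 1905 and Krt14 at 3881 CPM. Cluster 5 (35 cells) was led by Chil1 and Lrg1, with Cd14 at 2234 and Lcn2 at 10350 CPM. Cluster 6 (24 cells) was led by Fgb, Cited1, Fgg and Upk3a, with Cited1 at 862, Prlr at 492 and Krt19 at 3936 CPM. Krt8 stood between 2152 and 4432 CPM in all 6, and Elf5 was highest in clusters 2, 3 and 5 and lowest in cluster 6 at 6.84 CPM.

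Cluster 6 held 4.73% of the UMIs of replicate B members but most of the UMIs of several genes that led replicate A. It carried 90.4% of their Fgb UMIs, 98.1% of Fam25c, 79.3% of Upk3a, 92.0% of Cited1, 55.2% of Prlr and 60.2% of Krt4. Of the 25 leading genes of cluster 6, 20 were at least 4-fold higher in the Krt18-high cells of replicate A than in its comparison cells, with median levels of 309 and 3.87 CPM. For the other 5 clusters this number was between 2 and 6 of 25. The 20 members of replicate A thus shared several leading genes with cells of cluster 6, though not with all 24 of them. Fgb was detected in 33.3% of these cells, Upk3a in 37.5%, Fam25c in 41.7% and Cited1 in 87.5%. Other genes higher in replicate A members had most of their replicate B UMIs outside cluster 6. It held 36.0% of Pgr, 20.4% of Krt19, 11.1% of Ly6a and 8.63% of Krt7 UMIs. Without cluster 6, 134 genes were higher and 176 lower, and 306 of the 343 genes were called in both fits. Fam25c, Gipc2, R3hdml and Sprr2a3 were then too low to be tested.

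Levels over 4 bands of Krt18 showed how other genes followed the value used by the rule, as a description. In replicate B, Krt8 stood at 294, 1029, 2500 and 5283 CPM from the band under 10 to that of 50 or more per 10000 UMIs, and Cldn4 at 46.4, 239, 687 and 1182 CPM. Vim stood at 2200, 1106, 713 and 320 CPM, and Col1a1 at 520.5, 43.5, 19.5 and 17.9 CPM. These levels changed stepwise over the bands, without a break at the threshold, apart from Col1a1, which was already low in the second band. Elf5 stood at 9.06, 56.9, 108 and 109 CPM and was level within the class. Krt14 was present throughout, at 1783, 1973, 1578 and 1147 CPM. In replicate A, Krt8 stood at 90.5, 1177, 5251 and 5681 CPM over bands of 148, 10, 9 and 11 cells, so the upper bands there rest on few cells.

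**Figure D4:**
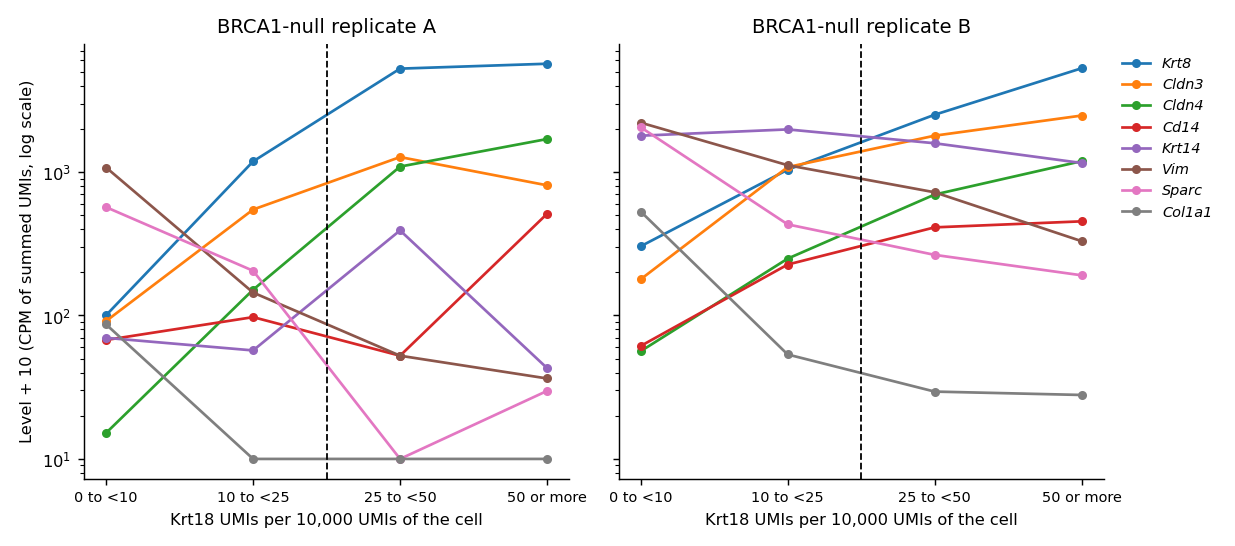
Level plus 10 (y axis, CPM of summed UMIs, log scale) of 8 genes over 4 bands of Krt18 per 10000 UMIs (x axis) in BRCA1-null replicates A and B; the dashed line marks the threshold of 25. In replicate B, Krt8 climbs from 294 to 5283 CPM and Vim drops from 2200 to 320 CPM.

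The second comparison asked how the Krt18-high cells of BRCA1-null tumors differed from cells taken by the same rule in PyMT tumors (1701 and 1603 cells) and Neu tumors (198 and 730 cells). Of 11641 genes tested with edgeR over the 6 libraries, 531 were higher in BRCA1-null (4.56%) and 179 were lower (1.54%), each set against the average of both other tumor types. These counts depended on single libraries. Leaving out BRCA1-null replicate A gave 1143 higher and 430 lower, leaving out BRCA1-null replicate B gave 201 and 60, leaving out Neu replicate B gave 249 and 59, and leaving out PyMT replicate B gave 106 lower. Tumor origin (spontaneous or transplanted line) and transgene cannot be told apart from tumor type. Levels are given in the order BRCA1-null replicates A and B, PyMT A and B, Neu A and B, scaled within this fit and so not identical to those above.

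Krt8, most claudins and Cd14 were not called, and Krt19 was the luminal keratin that was higher. Krt8 stood at 4934, 3423, 7089, 7862, 1923 and 2275 CPM (0.08 ± 0.29, adjusted p = 0.92 by edgeR). Cldn3 stood at 873, 1999, 974, 1255, 1174 and 1023 CPM (0.38 ± 0.37, adjusted p = 0.60), and Cd14 at 291, 412, 431, 348, 421 and 294 CPM (-0.08 ± 0.32, adjusted p = 0.93). Krt19 stood at 4169.5, 906, 347, 18.2, 3.41 and 0.718 CPM (7.31 ± 1.14, adjusted p = 0.0077). For Cldn3 and Cd14 the BRCA1-null values overlapped those of the other tumors. Krt8 in BRCA1-null lay below both PyMT tumors and above both Neu tumors, so its difference from their average was near 0 although the tumor types differed. Cldn4, Cldn7, Krt7, Elf5 and Kit were not called either, except that Krt7 (2.43) was without BRCA1-null replicate B. Cldn6 and Cldn10 were the claudins higher in BRCA1-null of the 9 tested. Cldn6 stood at 7.28 and 147 CPM against 0 to 0.227 CPM elsewhere (9.20 ± 0.90, adjusted p = 0.0011). Being near 0 in PyMT and Neu, it could pass the filter on low counts only through BRCA1-null. Without BRCA1-null replicate B it was too low to be tested. Cldn10 stood at 156 and 76.0 CPM, above the PyMT tumors (1.45 and 1.88) and below the Neu tumors (283 and 529).

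Milk and secretory genes were lower. Of 18 alveolar and milk genes, 6 were lower and none higher, with a median of -1.95 against 0.01 over all genes. Csn3 stood at 2278, 875, 19079, 20608, 18915 and 28705 CPM (-3.79 ± 0.50, adjusted p = 0.0041 by edgeR). The tetraspanin Tspan8 stood at 18.2, 25.02, 333, 346, 548 and 584 CPM (-4.26 ± 0.37, adjusted p = 8.9e-04). Both lay below all 4 PyMT and Neu tumors. Csn3 and Tspan8 were the 2 of these 6 that stayed called whichever library was left out. Of 19 luminal progenitor genes, 5 were lower (Lcn2, Csn3, Wfdc18, Trf and Plet1) and 2 higher (Aldh1a3 and Cldn10), so the list did not move one way (median -0.25). Lcn2, Csn3, Trf, Cldn10 and Plet1 stayed called whichever library was left out. Lcn2 stood at 764, 2311, 15184, 14616, 10234 and 11092 CPM (-3.03 ± 0.49, adjusted p = 0.0096). Trf differed by -2.99 ± 0.37 (adjusted p = 0.0029) and Wfdc18 by -1.94 ± 0.35 (adjusted p = 0.015). Free RNA of milk genes reached the Epcam-negative cells too, and its part in these differences was not tested. Aldh1a3, at 36.4, 78.1, 217, 109, 0.681 and 1.74 CPM, lay above the Neu tumors but turned to -1.40 against PyMT alone. Its call was lost without BRCA1-null replicate B (1.15), PyMT replicate B (1.72), Neu replicate A (1.80) or Neu replicate B (2.50).

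Basal keratins were higher in BRCA1-null cells of the class. Krt14 stood at 149 and 1416 CPM against 10.0 and 28.5 CPM in PyMT and 0.681 and 5.23 CPM in Neu (6.54 ± 0.87, adjusted p = 0.0042 by edgeR). Krt15 stood at 149 and 393 CPM against 0.681 to 4.28 CPM (7.19 ± 0.45, adjusted p = 3.6e-04), and Krt17 at 509 and 967 against 0.681 to 11.1 CPM (7.42 ± 0.69, adjusted p = 9.0e-04). Of 22 basal genes, 17 passed the filter, 9 were called higher and 1, Igfbp5, lower, with the same limit on the count as for matrix genes below, and Krt14, Krt15, Krt17, Krt6a and Lgals7 stayed called whichever library was left out. Of 26 mesenchymal and matrix genes, 17 passed the filter on low counts and 15 of these were called higher, but a gene near 0 in PyMT and Neu could pass only where it was high in BRCA1-null, so nothing is read from this count. Without BRCA1-null replicate B 5 were called (Col6a3, Fn1, Dcn, Postn and S100a4). Fibronectin (Fn1) stood at 167 and 122 CPM against 1.07 to 2.49 CPM (6.54 ± 0.42, adjusted p = 3.6e-04), and the calcium-binding protein S100a4 at 116 and 105 against 0.681 to 17.6 CPM (4.78 ± 0.30, adjusted p = 3.6e-04). Vim was called (3.62 ± 0.85, adjusted p = 0.041) although replicate A, at 29.1 CPM, lay within the range of the other tumors, and without BRCA1-null replicate B its difference was 0.11. Sparc likewise stood at 10.9 and 227 CPM against 2.28 to 12.3 CPM, with a difference of 0.92 without BRCA1-null replicate B. Of 7 fibroblast markers, 3 passed the filter (Col1a1, Col3a1 and Dcn) and were called, under the same limit. Dcn stood at 848 and 8.50 CPM in BRCA1-null, while Col1a1 and Col3a1 had 0 UMIs in replicate A and their differences turned to -6.46 and -6.48 without replicate B. The parts of stromal RNA and of free RNA of basal keratins in the differences of this paragraph were not tested.

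Of 12 hormone-sensing genes, 10 passed the filter, again under that limit, and 5 were called higher, namely Pgr, Cited1, Ly6a, Tbx3 and Wnt4, of which Cited1 and Ly6a stayed called whichever library was left out. Cited1 stood at 866 and 43.9 CPM against 0.205 to 3.60 CPM elsewhere (8.66 ± 1.11, adjusted p = 0.0035 by edgeR). Ly6a stood at 771 and 383 CPM against 2.56 to 46.8 CPM (5.66 ± 0.37, adjusted p = 3.6e-04). The genes of cluster 6 were among the widest differences, with Fgb at 666 and 53.6 CPM and Upk3a at 535 and 57.3 CPM against 0 to 0.205 CPM in the other 4 tumors. The limit on genes near 0 in PyMT and Neu applied to them too. Wfdc2 stood at 1201 and 1137 CPM against 11.3 to 66.6 CPM (5.67 ± 0.48, adjusted p = 8.9e-04), with like levels in both BRCA1-null tumors. Klf4, a transcription factor of epithelial differentiation, stood at 287 and 264 CPM against 19.2 to 31.3 CPM (3.35 ± 0.29, adjusted p = 8.9e-04). The minichromosome maintenance genes Mcm2, Mcm3, Mcm5 and Mcm6, which license DNA replication, were the 4 higher of 27 proliferation genes, and without BRCA1-null replicate B none of the 4 was called (log2 differences of -0.010 for Mcm3 and 1.35 to 2.45 for the others). Of 14 glycolysis genes, 5 were lower (Hk1, Pfkl, Pfkp, Ldha and the glucose transporter Slc2a1) and 1, Slc16a3, was higher, and Pfkl was the only one of the 6 called without BRCA1-null replicate B. With the replicate letter, which marks the sequencing batch, as a block, Hk1 (adjusted p = 0.062), Pfkp (adjusted p = 0.053), Slc16a3 (adjusted p = 0.067) and Mcm3 (adjusted p = 0.062) were no longer called by edgeR. The Notch receptor Notch1 (1.42 ± 0.28, adjusted p = 0.022) and its ligand Jag1 (4.33 ± 0.73, adjusted p = 0.011) were higher, and the growth factor receptor Egfr was lower (-1.79 ± 0.41, adjusted p = 0.040). None of these 3 was called without BRCA1-null replicate B (1.29, 5.12 and -2.99), nor Egfr with the replicate block (adjusted p = 0.057).

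Of 12 genes tested of the p53 pathway, Cdkn2a was higher (3.94 ± 0.44, adjusted p = 0.0019 by edgeR), Trp53 was lower and 10 were not called. The difference of Cdkn2a was 6.78 against Neu alone and 1.09 against PyMT alone. Trp53, one of the targeted genes, stood at 21.8, 24.4, 101, 89.4, 45.0 and 49.6 CPM (-1.51 ± 0.31, adjusted p = 0.025), below each of the other 4 tumors. The call of Trp53 was lost without BRCA1-null replicate B (-1.67), PyMT replicate A (-1.51) or B (-1.59), or Neu replicate B (-1.50), each time with a like difference. Within BRCA1-null tumors it was not called between Krt18-high and comparison cells (-0.31, adjusted p = 1.00). Brca1 had 0 UMIs in the members of replicate A, and it was too low to be tested between tumor types.

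**Figure D5:**
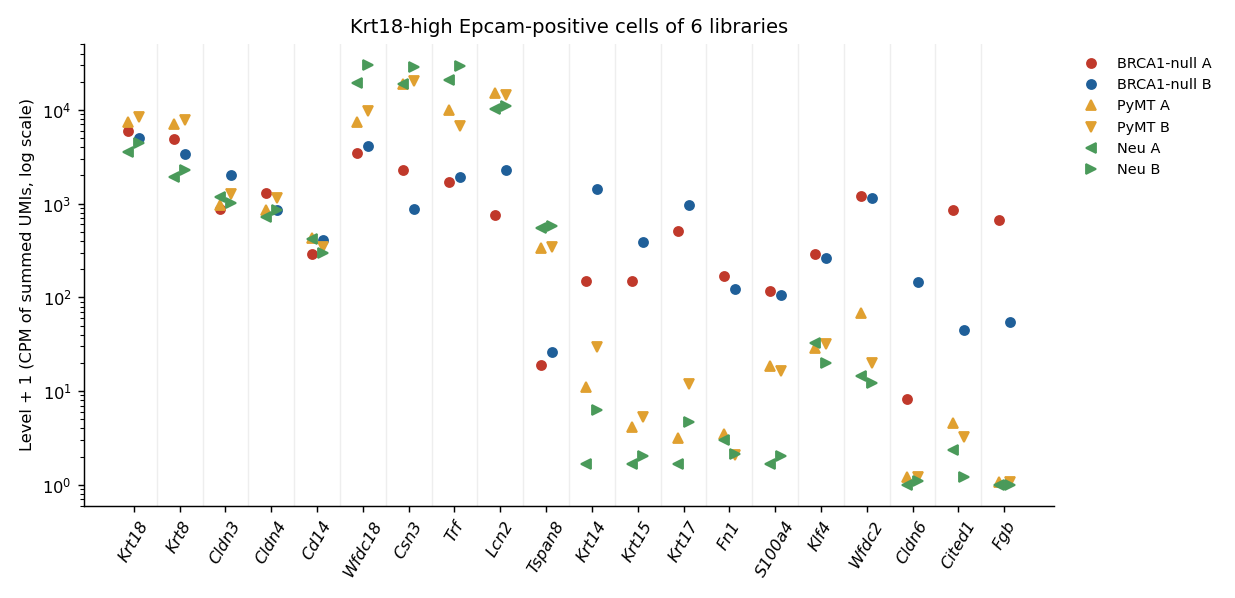
Level plus 1 (y axis, CPM of summed UMIs, log scale) of 20 genes (x axis) in the Krt18-high cells of 6 libraries, 1 point per library, colored by tumor type. Cldn3 and Cd14 overlap, and Krt8 of BRCA1-null lies between PyMT and Neu. Csn3 and Tspan8 lie lower and Krt15, Krt17 and Fn1 higher in both BRCA1-null tumors than in the other 4.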

How the data were processed

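Single-cell libraries of 7 tumors were analysed, 2 each of BRCA1-null, PyMT and Neu and 1 of 4T1. The authors deposited unnormalised UMI counts for each gene in each barcode, made with Cell Ranger against mm10. The submitters' processing notes name version 2.2.0 for the A libraries and 4T1 and 3.0.2 for the B libraries, whereas the matrix headers name 3.0.2, and no STAR version is given there. A combined matrix of all 7 libraries was not used. Each library was filtered as stated in the report. The members and gene lists were chosen with earlier results of these data known.

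UMIs were summed per tumor and arm and tested with edgeR 4.0.16 in R 4.3.3 (quasi-likelihood F test, TMM scaling, filterByExpr, Benjamini-Hochberg adjustment over all genes tested, threshold 0.05), using 4 sums within tumors (tumor as block, since both arms come from the same animal, residual degrees of freedom 1) and 6 sums between tumor types (residual degrees of freedom 3). Each tumor is a separate animal, so p-values between tumor types rest on the spread between so few tumors. Within tumors the spread was shared across genes, so a p-value there does not measure how well that gene repeated. Krt18 and Epcam had no test. The replicate letters mark sequencing batches per the study's methods. Deviations of same-lettered tumors from their group means had correlations over genes of 0.0974 for BRCA1-null with PyMT, 0.0371 for BRCA1-null with Neu and 0.152 for PyMT with Neu.

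Both fits were tested on simulated data with known fold changes. All simulated sums had the same base level of a gene, each tumor the same fold change, and the spread was that estimated by the fit. The shares below hold for that setting only, and the tumors here differed in levels and differences. Within tumors, over 11380 genes, 94.0% of genes raised 16-fold and 18.0% of those raised 4-fold were called, and 60.0% and 16.0% of genes lowered by as much. Between tumor types, over 11643 genes, these were 100% and 72.0%, and 90.0% and 38.0%. The named genes were a fixed set of markers, up to 3 genes per list with the smallest adjusted p, and up to 8 per direction with the largest difference. These last were called genes with at least 50 CPM in the higher group. Within tumors they also had the same sign in both tumors, and between tumor types their groups did not overlap.

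For shares, each cell was thinned to 3000 UMIs, and intervals are exact Clopper-Pearson intervals at 95%. Doublets were called per library with Scrublet and kept in the main fits. Members of replicate B were clustered with scanpy 1.11.5 (1500 variable genes, 20 components, 15 neighbors, Leiden resolution 0.6). Python 3.11.15, SciPy 1.17.1 and RefSeq promoters of GRCm38.p6 were used. Alternatives were DESeq2 1.42.0 size factors and its Wald test, no filter on low counts, Krt18 thresholds of 15 and 40, the study's cell filters, doublets removed, a mitochondrial limit of 10%, thinned cells, at least 2 Epcam UMIs, the block left out or added, each library left out, and contrasts with PyMT or Neu alone. Others, named as added, were chosen after seeing the data.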

Additional observations from a re-analysis of the deposited data

Results flagged for a closer look

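Mfge8, a milk fat globule protein of luminal cells, moved in opposite directions in the BRCA1-null tumors. The log2 ratio of Krt18-high over comparison cells was -1.21 in replicate A (168 against 389 CPM) and 1.21 in replicate B (963 against 417 CPM). The difference between the tumors was not tested, since each gives a single ratio, and edgeR did not call the gene over both tumors (0.03).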

How the results depend on the processing

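Within tumors (159 genes higher, 184 lower), the counts were 0 and 0 without the replicate block, 82 and 68 with the DESeq2 Wald test, 259 and 305 at a Krt18 threshold of 15, 40 and 71 at 40, 75 and 94 with thinned cells, and 54 and 20 with Epcam at 10 or more per 10000 UMIs. With at least 2 Epcam UMIs, 101 were lower. With 1 tumor left out no test is possible. Between tumor types (531 higher, 179 lower), the counts were 1714 and 612 without a filter on low counts, 930 and 444 at a threshold of 15 and 347 and 91 at 40, and 438 were lower against Neu alone. Leaving out each library in turn gave 201 to 1143 higher and 59 to 430 lower. With the replicate block (letter), 477 were higher and 186 lower, and of the genes recomputed it lost the calls of Aqp5, Egfr, Foxi1, Hk1, Mcm3, Pfkp and Slc16a3 and changed no other call. The share of members (11.2% and 22.7%) was 47.1% and 31.2% with Epcam at 10 or more, 20.3% and 26.7% when cells were thinned first, and in replicate B 36.0% at a threshold of 15, 12.5% at 40 and 25.6% with at least 2 Epcam UMIs. The causes were not tested.

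Signs changed for the following genes. Within tumors, Kit was 0.13 without the replicate block, 0.014 with DESeq2 size factors, 0.75 and 0.15 at thresholds of 15 and 40, 0.11 at a mitochondrial limit of 10%, 0.58 thinned and 0.11 at the Epcam level. Krt14 was -0.29 without the block and -1.38 at the Epcam level, where Krt17 was -0.99 and Trp53 0.047. Mfge8 was -0.014 unfiltered and -0.25 thinned. Between tumor types, against PyMT alone Aldh1a3 was -1.40, Aqp5 0.13, Cd36 0.27, Elf5 0.066, Kit 1.04, Krt7 -0.37 and Krt8 -0.84, and against Neu alone Cldn7 was 0.15, Ltf 2.69, Cldn10 -1.87 and Dsc2 -0.75. Kit was 0.022 with DESeq2 size factors, 0.14 and 0.24 at thresholds of 15 and 40, 0.027 at the 10% limit, 0.48 thinned and 0.016 without cluster 6. Krt8 was -0.014 unfiltered, -0.044 and -0.036 at thresholds of 15 and 40 and -0.15 thinned, and Elf5 was 0.0013 at 40 and 0.25 thinned. With each library left out, Cd14 ran from -0.41 to 0.11, Cldn3 from -0.39 to 0.81, Cldn4 from -0.10 to 0.51, Elf5 from -2.41 to 0.47, Esr1 from -1.05 to 3.24, Kit from -2.63 to 0.33, Krt7 from -0.16 to 2.43, Krt8 from -0.25 to 0.27, Malat1 from -0.30 to 0.51, Mfge8 from -2.10 to 0.45, Trp63 from -5.07 to 3.52, Bgn from -6.51 to 5.30, Col1a1 from -6.46 to 4.33, Col3a1 from -6.48 to 7.64, Mcm3 from -0.010 to 2.89, Slc16a3 from -6.13 to 3.36 and Wfdc12 from -6.71 to 8.49. Called genes whose sign changed were Aldh1a3, Aqp5, Cd36, Cldn10 and Dsc2 and, without BRCA1-null replicate B, Bgn, Col1a1, Col3a1, Mcm3, Slc16a3 and Wfdc12. Over the named and listed genes called within tumors, 956 recomputed values kept sign and call, 271 lost the call and 31 moved, and between tumor types 1399 kept both, 226 lost the call and 11 changed sign.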
